A study of Mus musculus with 4 samples.

Results

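Cyclic nucleotide phosphodiesterases are the enzymes that break down cAMP and cGMP, and the 10 genes described here (Pde1c, Pde2a, Pde3a, Pde3b, Pde4a, Pde4b, Pde4d, Pde5a, Pde7a and Pde8a) were taken by gene name from a table of 48316 names, held in 48432 rows. Messenger RNA had been sequenced from mouse cardiomyocytes, freed from the heart by Langendorff perfusion, in 4 libraries. The 2 libraries of the control group came from mice whose genotype label is MHC, and the 2 libraries of the Rbfox2 OE group from mice labelled RbFox2 or Rbfox2_OE, which overexpress the splicing regulator RBFOX2 (the non-muscle isoform, by the title of the series). Mice of both groups were of the strain C57BL x FVB and ate a doxycycline diet for 3 days before the cells were taken. The labels give no age, no number of animals per library, and neither the promoter that drives the overexpression nor what else the MHC and RbFox2 genotypes share.

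In heart muscle cells, adrenergic receptors raise cAMP through adenylyl cyclases, and nitric oxide and natriuretic peptides raise cGMP through guanylyl cyclases. Phosphodiesterases end these signals, and because each enzyme is anchored at its own sites, it limits how far cAMP reaches from a receptor to calcium channels, the ryanodine receptor or phospholamban. PDE4, PDE7 and PDE8 enzymes act on cAMP, PDE5 and PDE9 on cGMP, and PDE1, PDE2 and PDE3 on both.

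Each level below is the authors' single FPKM value for a group, a fragment count scaled for transcript length and sequencing depth, which combines its 2 libraries. The range in parentheses after a level runs from the authors' lower to their upper bound. Where 2 levels are set side by side, the control comes first. The table used here gives no value per library, so there is no replicate spread and no test, and the count of fragments behind a value is not given. The log2 ratio is that of Rbfox2 OE over control after adding 1 FPKM to each, which makes the ratios of low genes smaller. A gene was called 2-fold lower at a log2 ratio of -1 or below and 2-fold higher at 1 or above, and its bounds were called separate when the intervals of the groups did not overlap. Rbfox2 itself stood at 14.7 FPKM (10.4 to 19.0) in control cells against 293 FPKM (214 to 373) in Rbfox2 OE cells, in the direction of the group labels.

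Of the 10 phosphodiesterase genes, 4 were at least 2-fold lower in Rbfox2 OE (Pde4a, Pde1c, Pde7a and Pde3a), and 1, Pde4b, was 2-fold higher. The other 5 lay within 2-fold. Bounds were separate for 3 genes, Pde4a and Pde1c on the lower side and Pde4b on the higher side. Over the 11697 genes that averaged 1 FPKM or more, 10.02% were 2-fold lower and 6.97% were 2-fold higher, while 9.33% had separate bounds on the lower side and 6.67% on the higher side. That average was reached by 8 of the 10 genes; Pde3b and Pde5a stayed under it. The median log2 ratio was -0.48 over all 10 genes and -0.06 over the 11697 genes. The 10 genes were chosen with earlier results of these data known, so their counts beside these shares are a description only.

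**Figure D1:**
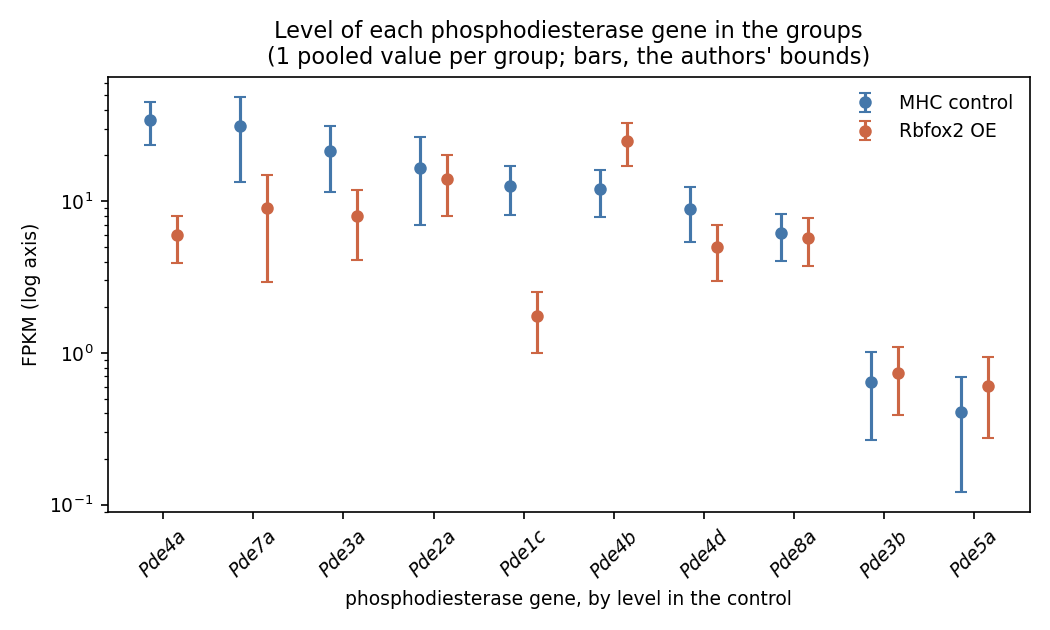
FPKM of the 10 phosphodiesterase genes on a log axis, ordered by their control level, with the control in blue and Rbfox2 OE in orange (points, the pooled value of a group; bars, the authors' bounds). The bars of the groups are apart for Pde4a and Pde1c, where Rbfox2 OE is lower, and for Pde4b, where it is higher; Pde3b and Pde5a lie near or under 1 FPKM in both groups.

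The cAMP-specific PDE4 enzymes, which carry much of the cAMP breakdown next to beta-adrenergic receptors in rodent heart, differed in direction. Pde4a (ENSMUSG00000032177, GRCm38 chromosome 9, 21165714 to 21213248, plus strand) stood at 34.1 FPKM (23.5 to 44.8) in control cells against 5.98 FPKM (3.93 to 8.02) in Rbfox2 OE cells. The control was 5.71 times higher, a log2 ratio of -2.33, and the bounds allow -3.22 to -1.44. Among all genes compared, 0.658% had a lower ratio than Pde4a.

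Pde4b (ENSMUSG00000028525, chromosome 4, 102087543 to 102607259, plus strand), an enzyme also known for its role in inflammatory cells, was at 11.98 FPKM (7.87 to 16.1) in control cells against 25.0 FPKM (17.0 to 32.9) in Rbfox2 OE cells. This is 2.09 times higher and a log2 ratio of 1.001 (0.08 to 1.94 by the bounds), which lies on the 2-fold line and came to 0.82 with a pseudocount of 5 FPKM. Pde4d (ENSMUSG00000021699, chromosome 13, 108449948 to 109953461, plus strand), whose product binds the ryanodine receptor complex, was at 8.92 FPKM (5.41 to 12.4) in control cells against 4.99 FPKM (2.97 to 7.01) in Rbfox2 OE cells. Its bounds overlapped, and its log2 ratio of -0.73 became 0.01 when centred on cardiomyocyte markers.

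Pde4a and Pde4b changed places in the order of levels. In the control, the level of Pde4a was 2.85 times that of Pde4b, with separate bounds, while in Rbfox2 OE the level of Pde4b was 4.18 times that of Pde4a, again with separate bounds. A ratio between genes of the same group does not depend on how the groups are scaled. The summed FPKM of Pde4a, Pde4b and Pde4d was 55.0 in the control and 35.9 in Rbfox2 OE.

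Pde4a and Pde4b are each transcribed from several start sites, and their promoters are shown because the genes differed in opposite directions. The windows come from RefSeq on GRCm38.p6 and run from 250 bases before to 50 bases after a start site. Of the annotated windows of each gene, the one printed was picked because it holds the core of the cAMP response element. The core, TGACG on either strand (CGTCA when read from the other one), is in capitals. The other windows of Pde4a and Pde4b do not hold it, and which start site these cells use was not tested. The Pde4a window is chr9:21183851-21184150 (plus strand) and the Pde4b window is chr4:102421305-102421604 (plus strand).
Pde4a: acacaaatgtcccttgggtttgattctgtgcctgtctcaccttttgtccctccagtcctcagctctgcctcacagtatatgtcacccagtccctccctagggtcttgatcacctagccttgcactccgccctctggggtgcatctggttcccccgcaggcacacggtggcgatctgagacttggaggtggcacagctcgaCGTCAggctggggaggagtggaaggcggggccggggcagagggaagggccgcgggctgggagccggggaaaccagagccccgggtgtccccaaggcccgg
Pde4b: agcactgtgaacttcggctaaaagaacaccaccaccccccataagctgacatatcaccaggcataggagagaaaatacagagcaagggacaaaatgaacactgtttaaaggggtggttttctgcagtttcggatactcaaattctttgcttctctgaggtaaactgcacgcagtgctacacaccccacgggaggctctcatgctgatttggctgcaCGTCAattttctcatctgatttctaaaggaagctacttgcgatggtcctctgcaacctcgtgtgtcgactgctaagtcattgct
The core was found in 4 of the 18 windows listed for 7 of the genes (Pde1c, Pde2a, Pde4a, Pde4b, Pde4d, Pde5a and Pde8a), or 22.2%, and in 20.8% of all 32851 windows of the same length. The whole element, TGACGTCA, which contains the core, was in 0 of the 18 windows and in 1.79% of all windows. Pde3a, Pde3b and Pde7a are not among the windows used here.

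Of the other cAMP-specific enzymes, Pde7a (ENSMUSG00000069094, chromosome 3, 19223108 to 19311322, minus strand) was the second most abundant gene of the 10 in the control, at 31.1 FPKM (bounds 13.4 to 48.8), and stood at 8.95 FPKM in Rbfox2 OE (bounds 2.94 to 15.0). The control was 3.47 times higher, a log2 ratio of -1.69, but the wide bounds overlapped and allow -3.66 to 0.15. Pde8a (ENSMUSG00000025584, chromosome 7, 81213596 to 81334533, plus strand), an enzyme with high affinity for cAMP, was at 6.14 FPKM (4.05 to 8.24) against 5.71 FPKM (3.72 to 7.71). Its levels lay well inside each other's bounds, and its log2 ratio of -0.09 turned to 0.04 or 0.08 when the groups were rescaled and to 0.65 when centred on cardiomyocyte markers.

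Among the enzymes that act on both nucleotides, Pde1c (ENSMUSG00000004347, chromosome 6, 56069804 to 56569103, minus strand), a calmodulin-dependent enzyme, was at 12.5 FPKM (8.10 to 17.0) in control cells against 1.76 FPKM (1.002 to 2.51) in Rbfox2 OE cells. The level was 7.14 times higher in the control, a larger plain ratio than that of Pde4a, while the log2 ratio with the pseudocount was -2.30 (-3.17 to -1.37 by the bounds). Pde3a (ENSMUSG00000041741, chromosome 6, 141249269 to 141507448, plus strand), the cGMP-inhibited enzyme found with phospholamban and the calcium pump of the sarcoplasmic reticulum, was at 21.3 FPKM (11.5 to 31.1) against 7.95 FPKM (4.11 to 11.8). The control was 2.67 times higher, a log2 ratio of -1.31, with bounds that overlapped by a narrow margin and allow -2.65 to 0.04.

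Pde2a (ENSMUSG00000110195, chromosome 7, 101421691 to 101512827, plus strand), a cGMP-stimulated enzyme, was at 16.6 FPKM (6.92 to 26.3) in control cells against 14.0 FPKM (7.95 to 20.03) in Rbfox2 OE cells. Its log2 ratio was -0.23, and centring on cardiomyocyte markers turned it to 0.51. The table holds another row named Pde2a, ENSMUSG00000030653, at 0.000625 and 0.000757 FPKM, which GENCODE M21 names Gm45837 and places over the same stretch of chromosome 7; its values are summed into those given here. Fragments of these overlapping genes on the same strand could have been split between them.

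Pde3b and Pde5a were the lowest of the 10 genes in both groups. Pde3b (ENSMUSG00000030671, chromosome 7, 114415281 to 114539251, plus strand), the paralogue of Pde3a, was at 0.640 FPKM (0.268 to 1.01) against 0.739 FPKM (0.388 to 1.09), so that Pde3a exceeded it 33.2 times in the control and 10.8 times in Rbfox2 OE. Pde5a (ENSMUSG00000053965, chromosome 3, 122728947 to 122859374, plus strand), the cGMP-specific enzyme and target of sildenafil, was at 0.405 FPKM (0.120 to 0.689) against 0.604 FPKM (0.276 to 0.933). For both genes the bounds of the groups overlapped.

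Set among the ratios of all genes compared, Pde1c lay next to Pde4a, with 0.701% of genes lower. The share of genes with a lower ratio was 2.25% for Pde7a, 5.37% for Pde3a, 17.0% for Pde4d, 39.3% for Pde2a and 48.2% for Pde8a, and it was 93.0% for Pde4b. Thus Pde4a and Pde1c were among the lowest ratios of the table, while Pde2a and Pde8a lay near its middle. The distance from a level to its bounds ranged between 31.3% and 70.2% of the level in control cells and between 31.8% and 67.2% in Rbfox2 OE cells.

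Pde4a and Pde4b overlap no other gene of GENCODE M21. On the strand opposite to Pde3a lies the antisense gene Gm28523, listed at 0.768 and 1.73 FPKM, and opposite to Pde7a lies Gm16093, listed at 0 and 0.0574 FPKM. Whether fragments were assigned by strand is not given in the sources used here, so reads of such partners cannot be told apart. Inside Pde4d, the same-strand pseudogene Rps3a3 was at 0.383 and 0.303 FPKM. The levels of Gm16093 and Rps3a3 are low beside those of Pde7a and Pde4d. In Rbfox2 OE, Gm28523 at 1.73 FPKM stood beside Pde3a at 7.95 FPKM. The part of such reads in the level of Pde3a was not tested.

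**Figure D2:**
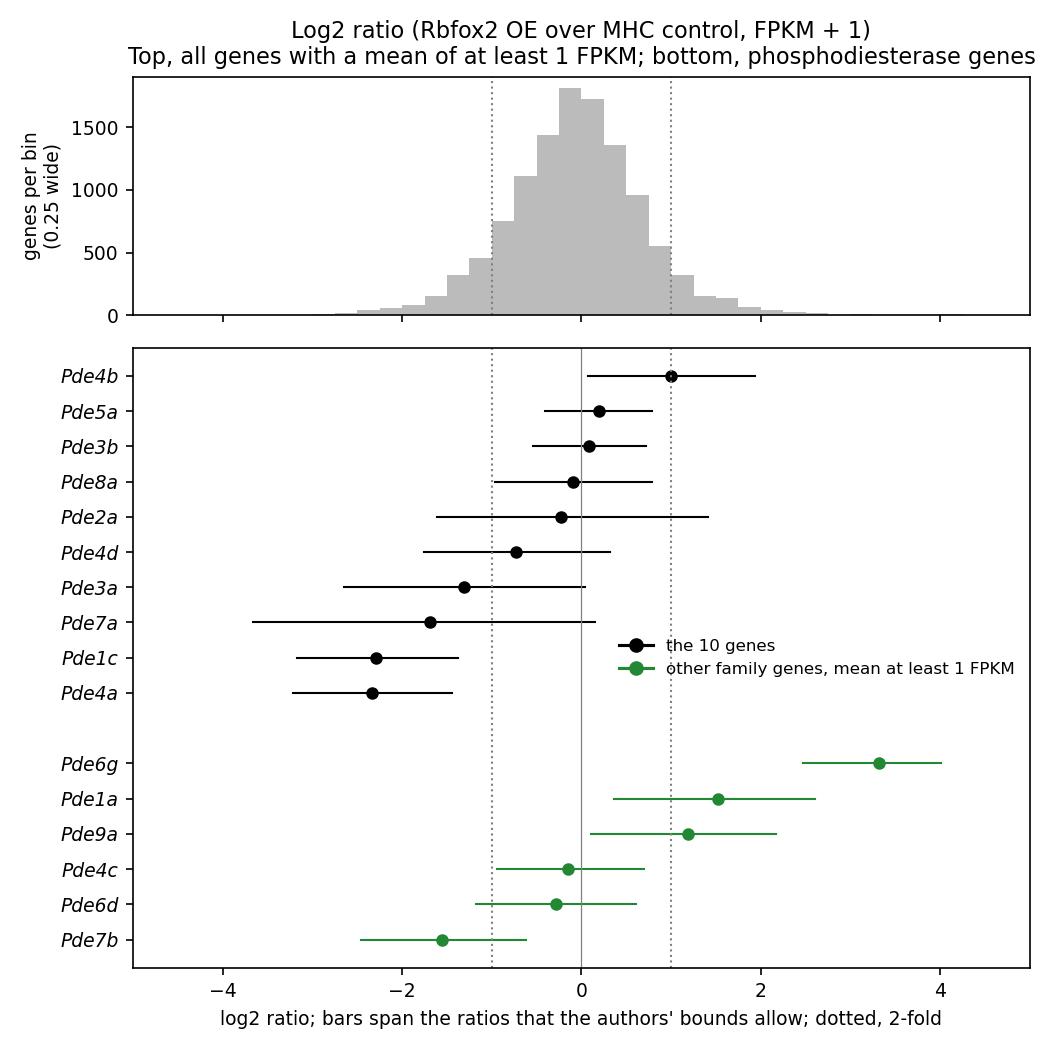
Log2 ratio of Rbfox2 OE over control (FPKM + 1). Above, the 11697 genes that averaged 1 FPKM or more as a histogram, where 9 genes lie beyond the axis; below, the 10 phosphodiesterase genes (black) and 6 further family genes with that average (green), with bars over the range that the authors' bounds allow and dotted lines at 2-fold. Pde4a, Pde1c and Pde7b lie in the lower tail with bars left of 0, and Pde6g lies at 3.32.

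The order of the levels differed between the groups. In the control it ran from Pde4a through Pde7a, Pde3a, Pde2a, Pde1c, Pde4b, Pde4d and Pde8a to Pde3b and Pde5a, and the bounds of every pair of neighbours overlapped except those of Pde8a and Pde3b. In Rbfox2 OE it ran from Pde4b through Pde2a, Pde7a, Pde3a, Pde4a, Pde8a, Pde4d and Pde1c to Pde3b and Pde5a, and there Pde4d and Pde1c were the only neighbours with separate bounds. Pde4b moved from the sixth place to the first and Pde4a from the first to the fifth.

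The levels of the 10 genes summed to 144 FPKM in the control and 75.6 in Rbfox2 OE, so the control was 1.90 times higher, and 2.601 times higher with Pde4b left out. The first of these ratios was 1.66 when the groups were rescaled to the same summed FPKM and 1.137 when they were centred on cardiomyocyte markers. Pde4a made up 23.8% of the control sum and 7.90% of the Rbfox2 OE sum. For Pde4b the shares were 8.34% and 33.0%, and for Pde1c 8.73% and 2.32%. Pde2a took 11.6% and 18.5% although its own level was slightly lower in Rbfox2 OE.

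**Figure D3:**
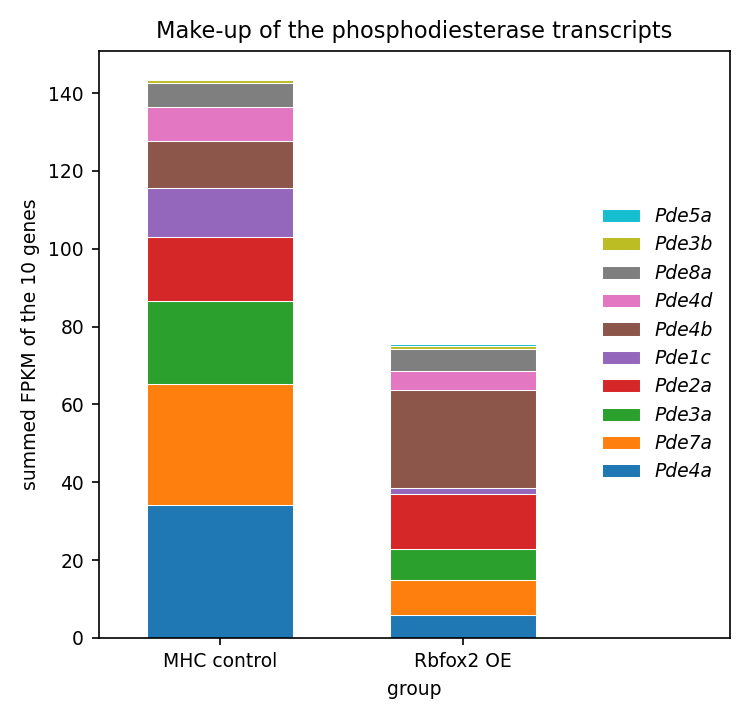
Summed FPKM of the 10 phosphodiesterase genes in each group, stacked by gene from an axis that starts at 0. The bar of Rbfox2 OE reaches 75.6 against 144 in the control, with a larger part for Pde4b and smaller parts for Pde4a and Pde1c.

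The family list holds 14 further genes, of which 6 averaged 1 FPKM or more. Of these 6, 1 was 2-fold lower and 3 were 2-fold higher, and the same 4 had separate bounds. Over the 11697 genes with that average, 10.02% were 2-fold lower and 6.97% were 2-fold higher. Pde7b, the paralogue of Pde7a, was at 7.50 FPKM (4.73 to 10.3) in control cells against 1.89 FPKM (1.04 to 2.74) in Rbfox2 OE cells, a log2 ratio of -1.56. Pde1a, a calmodulin-dependent relative of Pde1c that is also known from smooth muscle and fibroblasts, was at 1.45 FPKM (0.616 to 2.29) against 6.04 FPKM (3.22 to 8.86), a log2 ratio of 1.52. Among the PDE1 genes, Pde1c exceeded Pde1a 8.65 times in the control, and Pde1a exceeded Pde1c 3.44 times in Rbfox2 OE, with separate bounds in both groups.

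Pde9a, an enzyme specific for cGMP, was at 1.08 FPKM (0.461 to 1.70) against 3.75 FPKM (1.91 to 5.60), a log2 ratio of 1.19. Pde6g, the inhibitory gamma subunit of the photoreceptor enzyme, was at 0.204 FPKM (0 to 0.428) in control cells against 11.0 FPKM (6.88 to 15.1) in Rbfox2 OE cells. Its log2 ratio of 3.32 was higher than that of 99.8% of the genes compared. It reached the average of 1 FPKM only through its Rbfox2 OE level, so a high ratio was needed for it to be compared. No other gene annotated in GENCODE M21 overlaps Pde6g. With a pseudocount of 5 FPKM, the log2 ratios of Pde7b (-0.86), Pde1a (0.78) and Pde9a (0.53) came within 2-fold, as low levels are moved most. Of the catalytic photoreceptor subunits, Pde6b and Pde6c were listed at 0 in both groups and Pde6a was at 0.0130 and 0.0178 FPKM.

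Pde6d, a carrier of prenylated proteins despite its name, was at 29.0 and 23.7 FPKM, and Pde4c was at 1.36 and 1.121 FPKM, both with overlapping bounds and with log2 ratios (-0.28 and -0.15) that turned positive when centred on cardiomyocyte markers. The remaining Pde1b, Pde6h, Pde8b, Pde10a and Pde11a lay between 0.0218 and 0.832 FPKM. Over the 24 family genes, those specific for cAMP summed to 102 FPKM in the control and 54.2 in Rbfox2 OE, those that act on both nucleotides to 53.5 and 31.5, and the cGMP-specific ones to 1.498 and 4.38. Most of the cGMP-specific sums came from Pde9a alone, at 1.08 and 3.75 FPKM.

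Markers of the cells in the preparation moved in the same samples. Their counts stand beside 10.02% of the 11697 genes that were 2-fold lower and 6.97% that were 2-fold higher. In bulk RNA, fewer cells of a type and less RNA per cell cannot be told apart. Of 14 cardiomyocyte markers, Myh6 and Mb had no estimate and are listed at 0, and the other 12 ranged from 166 to 24688 FPKM in the control. These 12 summed to 65256 and 40797 FPKM, 4 were 2-fold lower and 0 were 2-fold higher, and their median log2 ratio was -0.74. Their ratios ranged from -2.37 to 0.60. Macrophage and leukocyte markers were 2-fold higher for 10 of 11 (sum 127 and 434 FPKM, median log2 ratio 1.60), and fibroblast markers for 7 of 10 (sum 477 and 943 FPKM, median 1.11). Endothelial markers were 2-fold higher for 3 of 10 (sum 246 and 432 FPKM, median 0.73), and smooth muscle and pericyte markers for 2 of 10, with 1 lower (sum 208 and 349 FPKM, median 0.73). Red blood cell markers were 2-fold higher for 4 of 6 (sum 56.6 and 295 FPKM), with Slc4a1 listed at 0 in the control. Of the markers counted as higher, Fcgr1 and Hba-a2 reached an average of 1 FPKM only through their Rbfox2 OE levels. Fcgr1 was at 0.406 and 3.35 FPKM, and Hba-a2 at 0.634 and 8.87 FPKM. Neuronal and glial markers summed to 9.42 and 13.1 FPKM, and adipocyte markers to 0.162 and 0.964 FPKM. The part of these cells in the levels of Pde4b, Pde1a, Pde9a and Pde6g was not tested.

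When the ratios were centred on the median of the cardiomyocyte markers, Pde4a stood at -1.59 and Pde1c at -1.56, still more than 2-fold lower, while Pde7a stood at -0.95 and Pde3a at -0.57. Pde4b stood at 1.74 on the same scale. Rescaling to the summed FPKM, or to the sum without mitochondrial and the 10 most abundant genes, raised the Rbfox2 OE levels by 0.20 and 0.15 on the log2 scale, which moves ratios less where the pseudocount weighs more (Pde5a went from 0.19 to 0.27 with the first), and left the calls for the 10 genes as they were. Rows without an estimate, 30 in the control and 26 in Rbfox2 OE, are listed at 0 and add nothing to the sums. Myh6 and Mb are among them in both groups. The 2-fold genes over the whole table split into 1172 lower and 815 higher as deposited, and into 853 lower and 1147 higher when rescaled to the summed FPKM.

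RBFOX proteins bind the RNA sequence UGCAUG, in introns where they guide splicing and also in 3′ untranslated regions, so the members' 3′ ends were searched for it on the RNA strand, written TGCATG. For each gene the longest principal protein-coding transcript of GENCODE M21 was used. The motif was present in 4 of the 10 genes, at 4 places each in Pde3a and Pde7a, 2 in Pde4b and 1 in Pde4d, and it was not found in these regions of the other 6 genes, Pde4a and Pde1c among them. The first site of each of these genes is printed with 12 bases on each side and the motif in capitals, at chr6:141499487-141499516 (plus strand), chr3:19226828-19226857 (minus strand), chr4:102606720-102606749 (plus strand) and chr13:109951413-109951442 (plus strand), in this order.
Pde3a: cttgtacatgtgTGCATGagaaaagggaga
Pde7a: cagtgaagacacTGCATGttgttttcacta
Pde4b: caagtctctggaTGCATGagttgagtttgt
Pde4d: ttgtttccaaagTGCATGtcacatgccaca
The regions differ in length, from 130 bases in the transcript used for Pde4d to 8555 bases in Pde3a. Their median length was 1912 bases over the 10 genes and 847.5 bases over 20730 genes. The share of all genes with the motif anywhere in this region was not counted. Per kilobase, the motif occurred 0.428 times over the 10 genes and 0.360 times over 20730 genes. Within the first 500 bases, it was in 0 of the 9 phosphodiesterase regions that long and in 14.9% of 13313 such regions. The shorter core GCATG, which TGCATG contains, occurred 1 time each in the regions of Pde4a and Pde1c. Per kilobase, this core occurred 1.05 times over the 10 genes and 0.962 times over the 20730 genes. In the first 500 bases, it was in 3 of the 9 phosphodiesterase regions and in 36.8% of the 13313. Of the genes that carry TGCATG, Pde4b was higher with separate bounds, while the bounds of Pde3a, Pde7a and Pde4d overlapped. Whether the motif bears on the levels was not tested. The data are levels of whole genes, which do not show splicing.

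The genes that make cAMP were compared from lists of the pathway. Counts of this and the following lists stand beside the shares over the 11697 genes. Of those, 10.02% were 2-fold lower and 6.97% 2-fold higher, and 9.33% and 6.67% had separate bounds on the lower and higher side. Of 10 adenylyl cyclase genes, 5 averaged 1 FPKM or more, 2 of these were 2-fold lower, 3 had separate bounds on the lower side, and 0 were 2-fold higher. Adcy6 was at 40.7 FPKM (29.1 to 52.4) in control cells against 9.30 FPKM (6.48 to 12.1) in Rbfox2 OE cells, a log2 ratio of -2.02. Adcy5, which with Adcy6 is the main cyclase of cardiomyocytes, was at 17.8 and 9.16 FPKM (log2 ratio -0.89), and Adcy9 at 6.76 and 2.47 FPKM (log2 ratio -1.16). The median of the 5 was -0.89.

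Among receptors and G proteins of cAMP synthesis, 10 of 15 genes had that average, and 3 of these were 2-fold lower and 0 higher, and 4 had separate bounds, all lower. Chrm2, the muscarinic receptor that lowers cAMP, was at 25.8 FPKM (18.1 to 33.6) against 5.14 FPKM (2.60 to 7.69), a log2 ratio of -2.13. Adora1, an adenosine receptor that also lowers cAMP, was at 7.46 and 1.52 FPKM (log2 ratio -1.75), and Adrb1, the main cardiac beta-adrenergic receptor, at 8.64 and 3.02 FPKM (log2 ratio -1.26). Gnas, the stimulatory G protein, was at 545 and 290 FPKM (log2 ratio -0.91). The list's median of -0.15 turned to 0.01 when rescaled to the summed FPKM and to 0.59 when centred on cardiomyocyte markers.

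For cGMP synthesis, 11 names were listed, 9 were found among the gene names and 6 had that average. Of the 6, 0 were 2-fold apart or had separate bounds. The number 2-fold higher was 1 when centred on the median gene, under either rescaling or with a pseudocount of 0.1 FPKM, and 5 when centred on cardiomyocyte markers (median 1.17). Of the 11697 genes, 3629 were 2-fold higher when centred on these markers, and between 920 and 1185 under those other settings. The median log2 ratio was 0.43, and Npr2, the receptor for C-type natriuretic peptide and the most abundant of the list, was at 17.1 and 10.2 FPKM. The difference between these lists was not tested.

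Of 16 effector genes of cAMP and cGMP, 13 had that average, 3 of these were 2-fold lower and 0 higher, and 4 had separate bounds, all lower. Prkar1a, a regulatory subunit of protein kinase A, was at 160 FPKM (113 to 206) against 76.6 FPKM (53.5 to 99.7), a log2 ratio of -1.05 that was -0.85 when rescaled to the summed FPKM. Rapgef4, the cAMP-activated exchange factor EPAC2, was at 8.45 and 2.63 FPKM (log2 ratio -1.38), the pacemaker channel Hcn4 at 2.44 and 0.296 FPKM (-1.41) and Hcn2 at 19.8 and 10.5 FPKM (-0.85). Hcn4 reached the average of 1 FPKM only through its control level. Popdc2, a cAMP-binding popeye protein and the most abundant gene of the list, was at 266 and 315 FPKM with overlapping bounds.

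For partners and anchors of phosphodiesterases, 18 names were listed, 17 were found and 16 had that average. Of the 16, 4 were 2-fold lower and 1 higher, beside 10.02% and 6.97% of all genes compared. Bounds were separate for 2 on each side. Rescaled to the summed FPKM, 2 were lower and 2 higher, and centred on cardiomyocyte markers 0 were lower and 6 higher. Of the 11697 genes, 853 were lower and 1147 higher when rescaled, and 243 lower and 3629 higher when centred. Akap6, the anchor that holds protein kinase A and PDE4D at the nuclear envelope, was at 28.9 FPKM (20.7 to 37.1) against 10.7 FPKM (7.59 to 13.9), a log2 ratio of -1.35. Akap1, the anchor of mitochondria, was at 70.0 and 32.6 FPKM (log2 ratio -1.08, or -0.89 when rescaled to the summed FPKM). Arrb2, the beta-arrestin that brings PDE4 to receptors, was at 4.12 and 10.9 FPKM (log2 ratio 1.22), and Akap12 at 12.1 and 24.1 FPKM (0.94). Pde4dip, or myomegalin, a binding partner of PDE4D, was the most abundant at 621 and 279 FPKM, but its bounds (181 to 1060 and 79.5 to 478) overlapped.

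The 2 transporters that export cyclic nucleotides, Abcc4 and Abcc5, lay within 2-fold with overlapping bounds. Abcc5 was at 5.33 and 8.16 FPKM. Of 8 genes of cAMP-responsive transcription, Sik1, a kinase whose gene is induced by CREB, was at 11.8 FPKM (8.25 to 15.4) in control cells against 25.5 FPKM (18.0 to 32.9) in Rbfox2 OE cells, a log2 ratio of 1.05, and the coactivator gene Crtc1 was lower at 3.26 and 1.27 FPKM with separate bounds. Atf1, the most abundant of the list, was at 31.3 and 41.4 FPKM with overlapping bounds.

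Centred on the cardiomyocyte markers, Adcy6, Chrm2 and Adora1 stayed at least 2-fold lower, while Adcy9, Adrb1, Prkar1a, Rapgef4, Hcn4, Akap6, Akap1, Pde4dip and Pde7b came within 2-fold. On the same scale, 1 adenylyl cyclase was 2-fold lower and 2 were higher, and 2 receptors and G proteins were lower and 4 higher. Among these higher genes, Adcy7, Ptger4 and Ptgir reached the average of 1 FPKM only through their Rbfox2 OE levels. For effectors, 0 were lower and 1 higher, and 4 genes of cAMP-responsive transcription were higher. Over the 11697 genes, 243 were 2-fold lower and 3629 higher on that scale. Akap12 (1.68), Abcc5 (1.27) and Atf1 (1.13) were then 2-fold higher. With a pseudocount of 5 FPKM, Adcy9, Adrb1, Adora1, Rapgef4, Hcn4, Akap1, Arrb2 and Sik1 came within 2-fold. The part of the cell types in these differences was not tested.

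**Figure D4:**
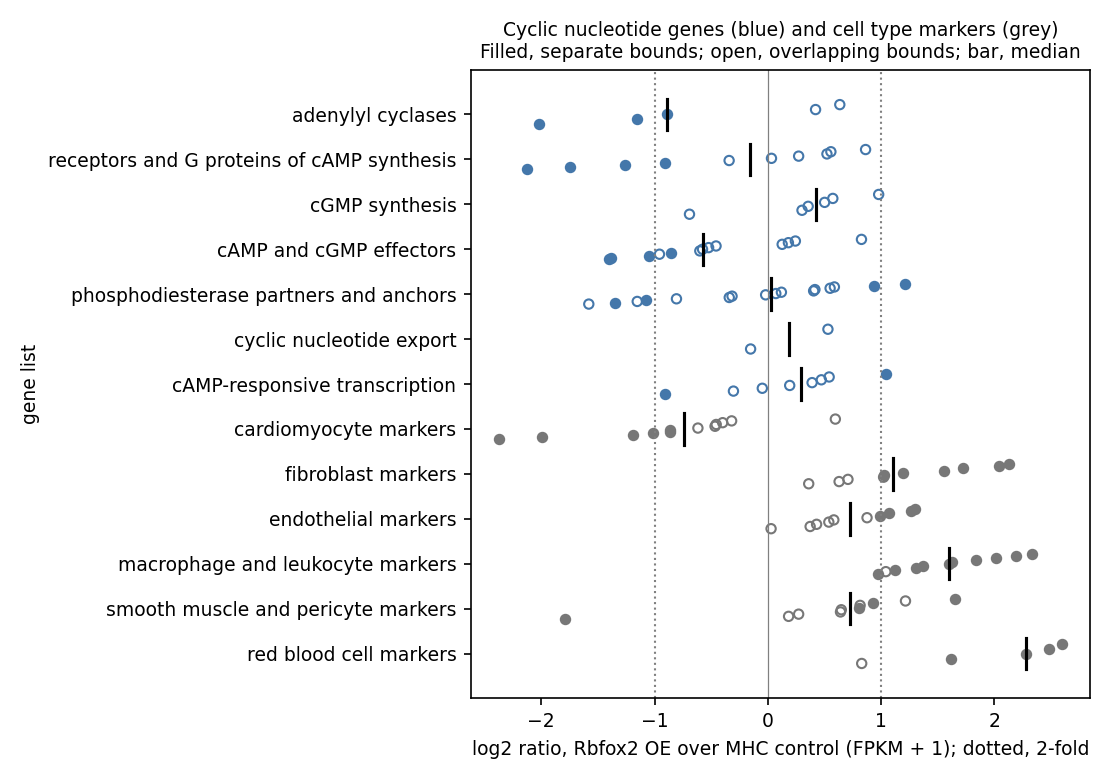
Log2 ratios of Rbfox2 OE over control (FPKM + 1) for genes that averaged 1 FPKM or more in 7 lists of cyclic nucleotide genes (blue) and 6 lists of cell type markers (grey). Each point is a gene, filled where the authors' bounds of the groups are separate, with a black bar at the median; adenylyl cyclases have a median of -0.89 and cardiomyocyte markers of -0.74, while macrophage and leukocyte markers have a median of 1.60.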

How the data were processed

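The authors deposited 1 gene-level table of FPKM values from Cuffdiff 2.2.1, per the file headers and the submitters' processing notes, which also name STAR 2.4.2a and the builds GRCm38 and mm10. Each group has an FPKM, bounds of that FPKM whose confidence level is not stated, and a status. Annotation, scaling mode and strand setting are not given in the sources used here.

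Rows that share a name (110 names) were summed. From the deposited FPKM values, log2 ratios with a pseudocount of 1 FPKM were computed (Python 3.11.15, pandas 2.3.3); their ranges set one group's lower bound against the other's upper bound. Positions and transcripts come from GENCODE M21, promoters from RefSeq.

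The members, pathway lists and markers were chosen with earlier results of these data known. Named were all family genes, Rbfox2 and, per pathway list, up to 5 genes with separate bounds and the largest ratios, plus the most abundant one. Other pseudocounts, filters, fold thresholds and 4 scalings were tried.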

Additional observations from a re-analysis of the deposited data

How the results depend on the processing

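No paired analysis was possible because the libraries of a group were merged into 1 value before deposit, and no library could be left out for the same reason; the spread between libraries is unknown, and the bounds of Pde7a, Pde3a and Pde2a are too wide to place their ratios. The number of 2-fold lower genes among the 10 went from 4 to 2 with a 4-fold threshold and to 2 when centred on cardiomyocyte markers, since this adds 0.74 to each ratio. The number of 2-fold higher genes went from 1 to 0 with a 4-fold threshold and to 0 with a pseudocount of 5 FPKM. Among the 10 genes, the counts by separate bounds were 2 lower and 1 higher under each of the 4 scalings. Over all genes they were 1091 lower and 780 higher as deposited, and 282 and 2650 when centred on cardiomyocyte markers. Of 60 log2 ratios of the 10 genes under alternatives, 52 kept their sign and side of the 2-fold line, 3 fell inside it and 5 changed sign. The sign changed for Pde8a when rescaled without mitochondrial and top genes (0.037) or to the summed FPKM (0.082), and, centred on cardiomyocyte markers, for Pde8a (0.65), Pde2a (0.51) and Pde4d (0.013). Centring also turned Pde4c (0.59), Pde6d (0.46), Npr2 (0.050), and the medians of receptors and G proteins (0.59) and effectors (0.17). The median of receptors and G proteins was 0.011 when rescaled to the summed FPKM. Without a filter on low values, the medians of the other phosphodiesterases (-0.063), partners and anchors (-0.019), adenylyl cyclases (0.053) and receptors and G proteins (0.10) changed sign, because genes near 0 enter. With a mean of at least 5 FPKM the cGMP synthesis median was -0.19, over fewer genes, and averaging partners and anchors instead of taking their median gave -0.15. Of the 2-fold genes over the table, 59.0% were lower as deposited, 47.1% and 42.6% under the 2 rescalings and 6.28% when centred on cardiomyocyte markers. A pseudocount of 5 FPKM gave 559 lower and 304 higher, and a 1.5-fold threshold 2582 and 1938.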
